A study of Mus musculus with 14 samples.

Results

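Collagens and other proteins of the extracellular matrix form a listed set of 45 genes, taken by name and sorted by role, of which 43 were measured among the 19938 genes of the array. Fbn1 had no probe of its own in the array annotation and Loxl2 only a probe shared with another gene, so both were left out. Gene expression was measured in female mice aged 14 months with 1 Affymetrix mouse gene array per RNA sample. There were 6 arrays of tumour-free liver tissue from mice lacking Mdr2 and IL6 (Mdr2-KO/IL6-KO), 5 of tumour-free liver tissue from mice lacking Mdr2 (Mdr2-KO), and 3 of liver from wild-type control mice of strain C57BL/6. The labels name no strain for the knockouts, so effects of strain and of the knockouts cannot be told apart. Each array has its own code in its title, but no label says that the codes stand for different mice, so part of the spread behind the p-values may be technical. All values below are log2 probe-set signals, in which a step of 1 is a doubling, and every measured matrix gene was read by 1 probe set.

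Abcb4 (formerly Mdr2) moves phosphatidylcholine across the canalicular membrane into bile, and mice without it develop chronic injury around the bile ducts with fibrosis and, late in life, liver tumours. In fibrosis, activated stellate cells and portal fibroblasts secrete fibrillar collagens, which are trimmed, crosslinked by lysyl oxidases and bound by small leucine-rich proteoglycans. Basement membranes, built from collagen IV, laminins and nidogen, lie under bile duct and blood vessel cells. Interleukin 6 is a cytokine to which hepatocytes respond with acute phase proteins, and the comparison of both knockouts asks what its loss adds to the loss of Mdr2.

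Abcb4 signal checked the labels and averaged 9.05 ± 0.20 in Mdr2-KO/IL6-KO (SD, n = 6), 9.01 ± 0.19 in Mdr2-KO (n = 5) and 10.36 ± 0.03 in wild type (n = 3). The highest knockout array was at 9.24 and the lowest wild-type array at 10.33. Il6 signal averaged 3.48 ± 0.31 in Mdr2-KO/IL6-KO, 3.07 ± 0.15 in Mdr2-KO and 3.22 ± 0.10 in wild type, under 5.49 in all 14 arrays. That value, the 95th percentile of 1015 olfactory receptor genes, is used here as the array's background, so loss of Il6 RNA could not be read. Array medians lay between 6.15 and 6.24. Means of 7 hepatocyte markers were 12.30 to 12.56 in Mdr2-KO/IL6-KO, 12.39 to 12.53 in Mdr2-KO and 12.35 to 12.41 in wild-type arrays. Mdr2-KO array 3 stood apart in the matrix genes, with the lowest value of its group in 35 of the 43, and member calls lost or gained without it are given with each gene.

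In Mdr2-KO/IL6-KO liver 16 of the 43 matrix genes exceeded wild type and 1 was lower, while 26 did not pass the test (limma, adjusted p under 0.05 over all 19938 genes). Those 16 are 37.2% of the members, beside 6.96% of all genes that were called higher, and the 1 lower gene is 2.33%, beside 5.33% of all genes. In Mdr2-KO liver 10 exceeded wild type, 2 were lower and 31 did not pass. These shares of 23.3% higher and 4.65% lower stand beside 8.89% and 12.1% of all genes. The shares of all genes include genes near background: 29.2% of them had a mean under 5.49, and 1 member did. With only the 13292 genes of higher mean, 18 members and 1538 genes were higher in Mdr2-KO/IL6-KO. In Mdr2-KO these were 11 members and 1841 genes. The median difference from wild type over the 43 genes was 0.34 log2 units in Mdr2-KO/IL6-KO, where the median over all genes was -0.02. For Mdr2-KO the median was 0.21 over the matrix genes and -0.07 over all genes. Both comparisons share the 3 wild-type arrays, so their results are not independent of each other. Counts by role below stand beside the same shares of all genes. At an unadjusted p of 0.05 (limma), 2653 of all 19938 genes were higher and 2436 lower in Mdr2-KO/IL6-KO. In Mdr2-KO these counts were 2692 and 4777, and unadjusted counts by role stand beside them.

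The largest rises were in lumican (Lum), dermatopontin (Dpt) and nidogen 1 (Nid1), and the largest fall was in extracellular matrix protein 1 (Ecm1). The 6 Mdr2-KO/IL6-KO arrays all lay above the 3 wild-type arrays in 20 members and all below in 2, beside 8.57% and 6.56% of all genes. For the 5 Mdr2-KO arrays the counts were 9 above and 3 below, beside 10.3% and 13.2% of all genes. The count of 10 higher members in Mdr2-KO was 5 without wild-type array 1 or 3, 6 without Mdr2-KO array 4 or 5, and 15 without Mdr2-KO array 3. In Mdr2-KO/IL6-KO the 16 became 11 at the lowest and 20 at the highest when single arrays were left out. In bulk tissue, more cells of a type and more RNA per cell cannot be told apart.

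**Figure D1:**
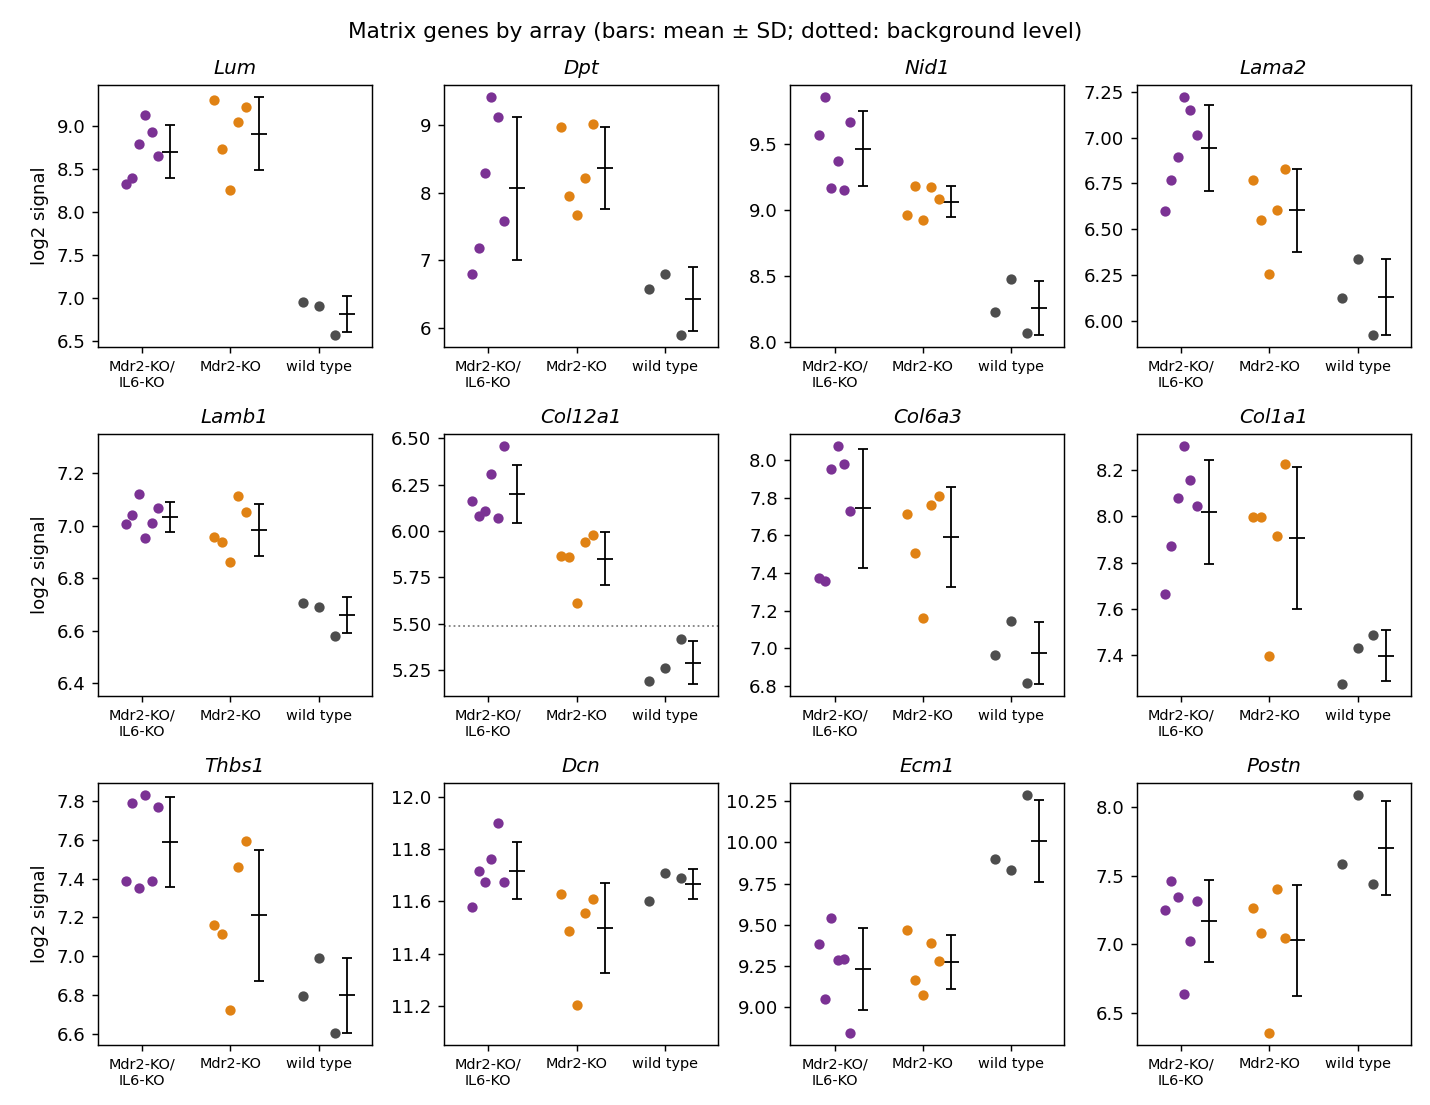
Log2 signal of 12 matrix genes, 1 gene per panel with its own axis range, with 1 point per array, a bar for mean ± SD and a dotted line at the background where it falls in range, for Mdr2-KO/IL6-KO (n = 6), Mdr2-KO (n = 5) and wild type (n = 3). All knockout arrays of Lum lie above all wild-type arrays, and all knockout arrays of Ecm1 lie below them.

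**Figure D2:**
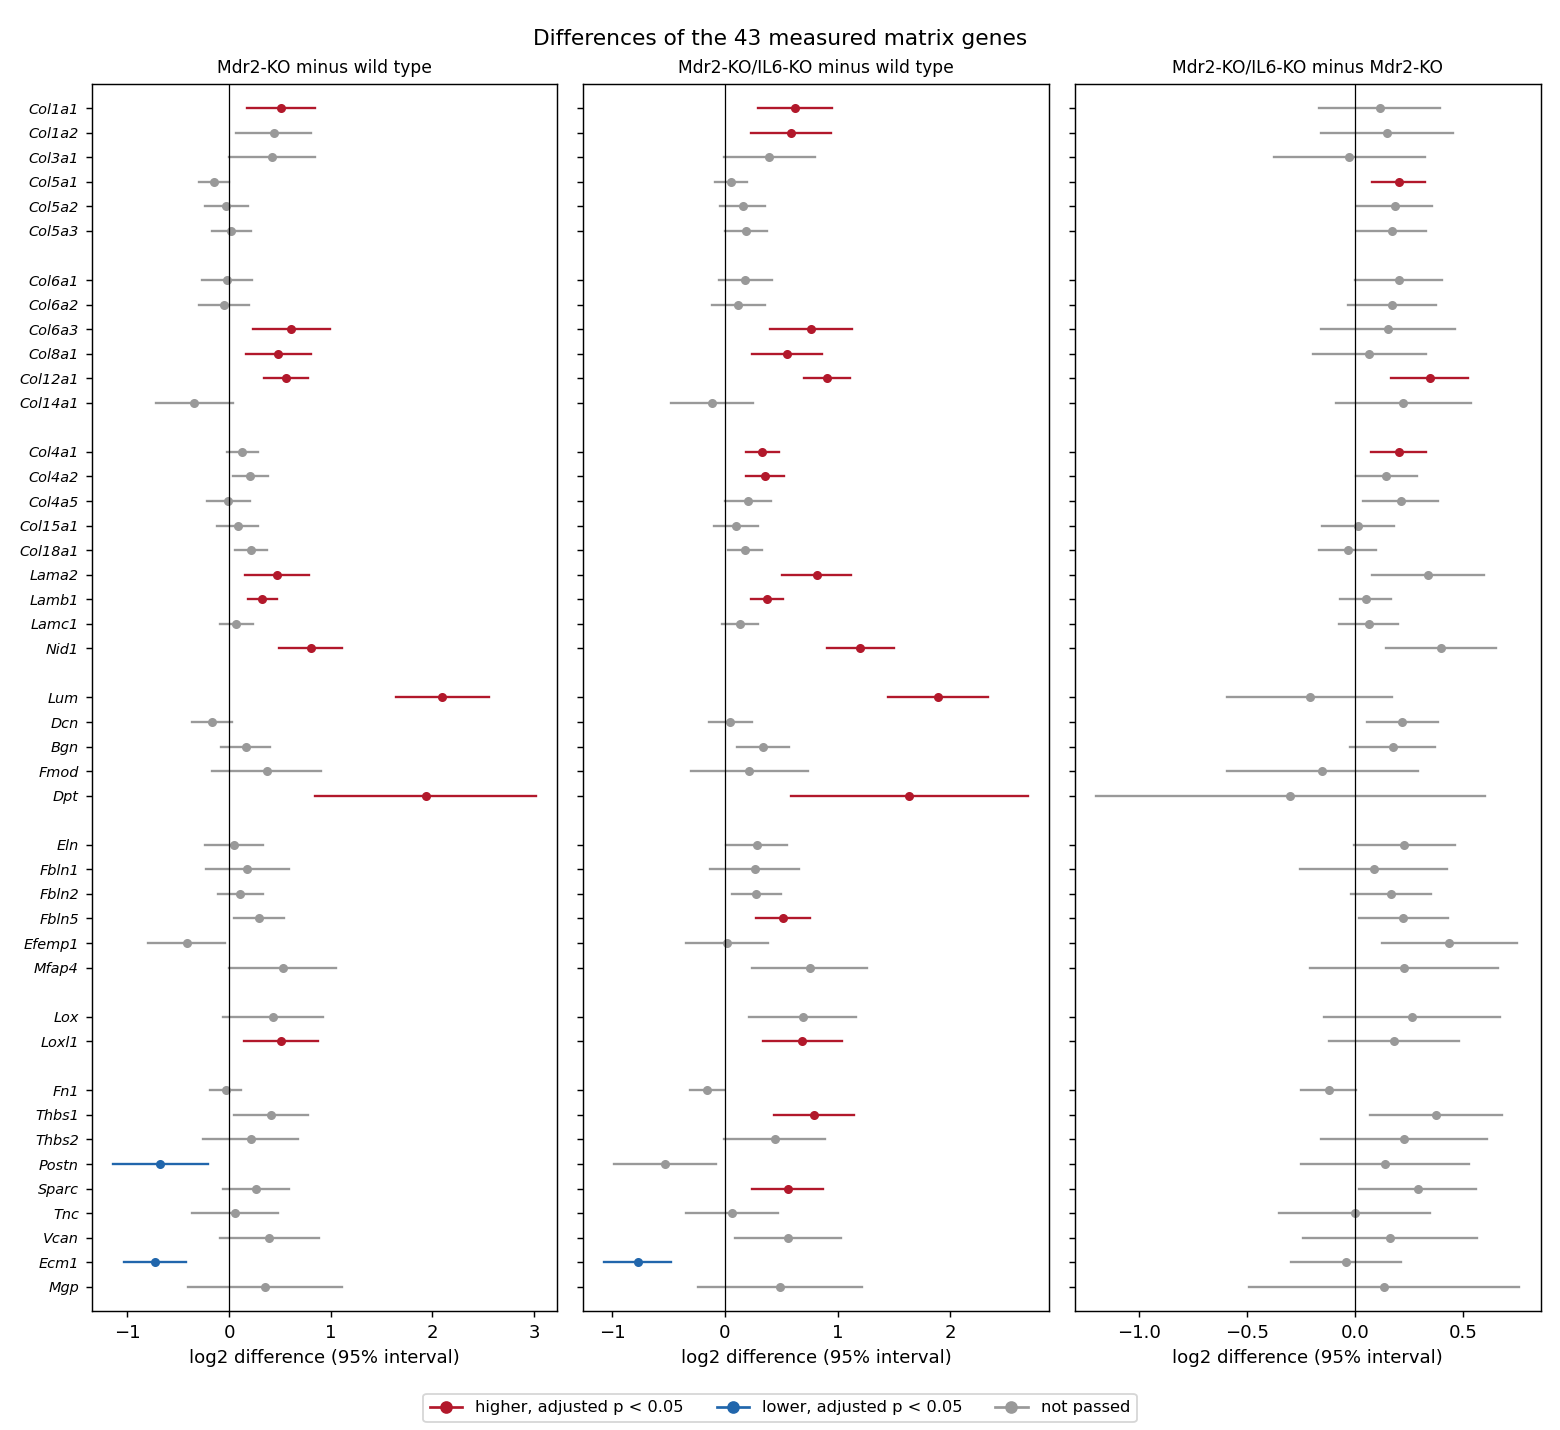
Difference in log2 signal for each of the 43 measured matrix genes, grouped by role, with its 95% confidence interval, in a panel each for Mdr2-KO minus wild type, Mdr2-KO/IL6-KO minus wild type and Mdr2-KO/IL6-KO minus Mdr2-KO. Coloured genes passed the test (red higher, blue lower), 12, 17 and 3 in the order of the panels, and the horizontal axes differ in range.

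The stretch of DNA just upstream of the transcription start is shown for 4 genes chosen from 4 roles (a collagen binder, a basement membrane protein, a fibrillar collagen and a glycoprotein) and present in the RefSeq promoter table (GRCm38.p6). Dpt and Nid1 were higher and Ecm1 was lower than wild type in both knockouts, and the collagen chain Col1a2 was higher in Mdr2-KO/IL6-KO. Each is the 250 bases before the start, on the gene's own strand, 5′ to 3′, with capitals at matches on either strand to the TATA box TATAAA, the CCAAT box, the GC box GGGCGG or the AP-1 motif TGANTCA.
Dpt, chr1:164796413-164796662, plus strand: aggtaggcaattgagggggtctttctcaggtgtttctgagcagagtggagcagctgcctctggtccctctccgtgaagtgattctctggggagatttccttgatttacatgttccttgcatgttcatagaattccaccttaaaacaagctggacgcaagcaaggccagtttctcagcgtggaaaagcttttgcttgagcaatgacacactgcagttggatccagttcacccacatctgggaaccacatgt
Nid1, chr13:13437352-13437601, plus strand: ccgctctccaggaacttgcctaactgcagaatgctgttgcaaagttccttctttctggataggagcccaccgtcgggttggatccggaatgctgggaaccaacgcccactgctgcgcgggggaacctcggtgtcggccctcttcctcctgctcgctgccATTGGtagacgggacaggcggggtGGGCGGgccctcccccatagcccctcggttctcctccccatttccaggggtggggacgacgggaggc
Col1a2, chr6:4505368-4505617, plus strand: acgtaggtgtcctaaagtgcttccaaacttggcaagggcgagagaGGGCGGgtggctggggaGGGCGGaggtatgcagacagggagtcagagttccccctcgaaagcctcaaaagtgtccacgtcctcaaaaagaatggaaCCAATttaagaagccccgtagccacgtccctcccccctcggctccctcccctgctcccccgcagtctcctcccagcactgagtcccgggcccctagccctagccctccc
Ecm1, chr3:95739570-95739819, minus strand: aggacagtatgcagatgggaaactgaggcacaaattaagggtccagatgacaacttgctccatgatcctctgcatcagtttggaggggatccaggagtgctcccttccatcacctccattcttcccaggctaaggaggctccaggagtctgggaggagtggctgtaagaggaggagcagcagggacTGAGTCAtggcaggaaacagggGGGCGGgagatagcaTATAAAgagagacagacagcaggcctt
The Dpt window held none of the 4 motifs, which says only that these letters are not in this window. Nid1 had 1 CCAAT and 1 GGGCGG match, Col1a2 had 1 CCAAT and 2 GGGCGG matches, and Ecm1 had 1 match each to the TATA box, the GC box and the AP-1 motif. Of the 45 listed genes, 30 matched the table, with 36 promoters. GGGCGG was in 58.33% of these promoters and in 32.74% of all 32851 promoters of the table. For TATAAA the share was 16.67% of the members' promoters and 12.37% of all. CCAAT was in 30.56% of the members' and 33.85% of all, and TGANTCA in 8.33% of the members' and 6.75% of all. A match describes the sequence and is not evidence of binding.

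Among the small proteoglycans and collagen binders, Lum and Dpt rose in both knockouts and Dcn, Bgn and Fmod did not pass. Lum encodes a leucine-rich proteoglycan that binds collagen fibrils and sets their spacing. Its signal was 8.32 at the lowest, 8.71 at the median and 9.12 at the highest of the 6 Mdr2-KO/IL6-KO arrays, 9.29, 8.73, 8.25, 9.04 and 9.22 in the 5 Mdr2-KO arrays, and 6.95, 6.91 and 6.57 in the 3 wild-type arrays. The knockout arrays were all higher, with no overlap. The difference from wild type was 1.89 log2 units (SE 0.21, adjusted p = 4.57e-05) in Mdr2-KO/IL6-KO, or 3.71-fold, and 2.10 log2 units (SE 0.22, adjusted p = 2.44e-05) in Mdr2-KO, or 4.28-fold. No array or alternative setting ended either call.

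Dpt encodes a small protein that binds decorin and speeds collagen fibril formation. Its signal was 6.80 at the lowest, 7.94 at the median and 9.42 at the highest of the 6 Mdr2-KO/IL6-KO arrays, 8.96, 7.94, 7.67, 8.22 and 9.02 in the 5 Mdr2-KO arrays, and 6.58, 6.81 and 5.90 in the 3 wild-type arrays. The Mdr2-KO arrays all lay above wild type, and the lowest Mdr2-KO/IL6-KO array fell inside the wild-type range. Among the members this was the widest range within the Mdr2-KO/IL6-KO group. Dpt differed from wild type by 1.64 log2 units (SE 0.49, adjusted p = 0.0418) in Mdr2-KO/IL6-KO, a call that ended without Mdr2-KO/IL6-KO array 3, 4 or 5, Mdr2-KO array 2 or 4 or wild-type array 1, 2 or 3 (adjusted p = 0.0515 to 0.174), and with trend and robust moderation (adjusted p = 0.0913) and with only the 2 groups compared (adjusted p = 0.071). In Mdr2-KO the difference was 1.94 log2 units (SE 0.51, adjusted p = 0.0159), and it did not pass without wild-type array 3 (adjusted p = 0.0864).

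Decorin (Dcn), which binds collagen and transforming growth factor beta, differed from wild type by 0.05 (adjusted p = 0.793) in Mdr2-KO/IL6-KO and -0.17 (adjusted p = 0.194) in Mdr2-KO. Biglycan (Bgn), its close relative, gave 0.34 (adjusted p = 0.0539) in Mdr2-KO/IL6-KO and 0.16 (adjusted p = 0.297) in Mdr2-KO. The Bgn difference in Mdr2-KO/IL6-KO passed without Mdr2-KO/IL6-KO array 1 or Mdr2-KO array 3 (adjusted p = 0.0132 to 0.0472), and after quantile normalization (adjusted p = 0.0208), with only the 13292 genes of higher mean (adjusted p = 0.0406), with trend and robust moderation (adjusted p = 0.0451), with array weights (adjusted p = 0.0129) and with only the 2 groups compared (adjusted p = 0.0336). Fibromodulin (Fmod), a partner of lumican on the fibril, gave 0.22 (adjusted p = 0.65) in Mdr2-KO/IL6-KO and 0.37 (adjusted p = 0.291) in Mdr2-KO. Lum and Dcn are neighbours on chromosome 10 with no coding gene between them in the RefSeq annotation. Within each array, the log2 ratio of Lum over Dcn relative to its wild-type mean averaged 1.84 ± 0.25 in Mdr2-KO/IL6-KO and 2.27 ± 0.26 in Mdr2-KO, against a wild-type SD of 0.24. Lum over Fmod averaged 1.67 ± 0.21 in Mdr2-KO/IL6-KO and 1.73 ± 0.16 in Mdr2-KO, against a wild-type SD of 0.30. The pairs were chosen with their values known and are given as description, with no test.

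**Figure D3:**
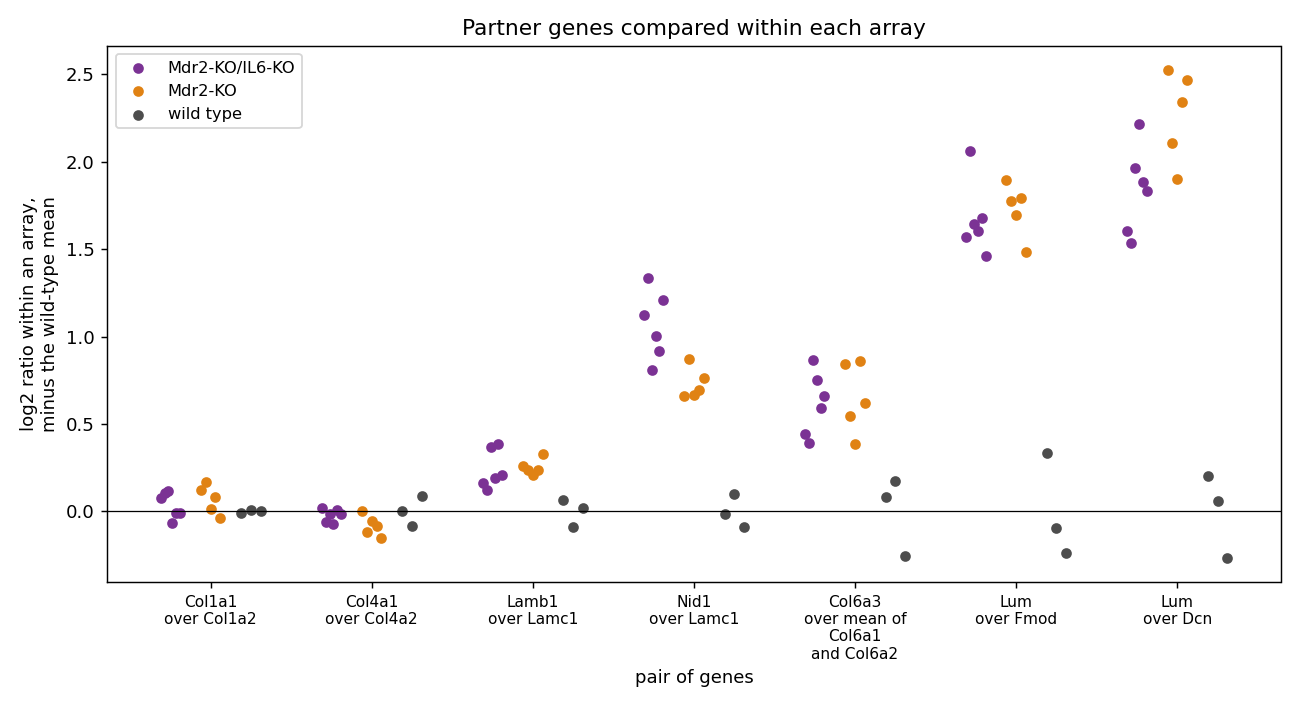
Log2 ratio of matrix partners within each array, relative to the wild-type mean (vertical axis), for 7 pairs, with 1 point per array, for Mdr2-KO/IL6-KO (n = 6), Mdr2-KO (n = 5) and wild type (n = 3). Lum over Dcn lies between 1.54 and 2.22 in Mdr2-KO/IL6-KO and between 1.90 and 2.52 in Mdr2-KO, while Col1a1 over Col1a2 stays between -0.07 and 0.17 in all knockout arrays.

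Among the 6 fibrillar collagens, Col1a1 and Col1a2 were higher in Mdr2-KO/IL6-KO and Col1a1 in Mdr2-KO, and none was lower in either (none also at an unadjusted p of 0.05, limma). Col1a1 and Col1a2 encode the chains of collagen I, the main fibril of scar tissue. Col1a1 signal was 7.67 at the lowest, 8.06 at the median and 8.31 at the highest of the 6 Mdr2-KO/IL6-KO arrays, 8.0, 8.0, 7.40, 7.91 and 8.22 in the 5 Mdr2-KO arrays, and 7.28, 7.43 and 7.49 in the 3 wild-type arrays. Mdr2-KO/IL6-KO did not overlap wild type, whereas Mdr2-KO array 3 lay inside the wild-type range. The difference was 0.62 log2 units (SE 0.15, adjusted p = 0.0143) in Mdr2-KO/IL6-KO and 0.51 log2 units (SE 0.16, adjusted p = 0.0336) in Mdr2-KO. The first call ended without wild-type array 1 (adjusted p = 0.071), and the second ended without Mdr2-KO array 1, 2, 4 or 5 or wild-type array 1, 2 or 3 (adjusted p = 0.0531 to 0.111), and after quantile normalization (adjusted p = 0.0558) and with only the 2 groups compared (adjusted p = 0.0505).

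Col1a2 signal was 7.38 to 8.16 (median 7.80) in Mdr2-KO/IL6-KO, 7.67, 7.62, 7.17, 7.62 and 8.05 in Mdr2-KO, and 7.07, 7.21 and 7.27 in wild type. Its Mdr2-KO/IL6-KO arrays lay above all wild-type arrays, and the lowest Mdr2-KO array did not. It differed from wild type by 0.59 log2 units (SE 0.17, adjusted p = 0.0316) in Mdr2-KO/IL6-KO and by 0.44 log2 units (SE 0.17, adjusted p = 0.0797) in Mdr2-KO, and the first call ended without Mdr2-KO/IL6-KO array 4 or 5 or wild-type array 1, 2 or 3 (adjusted p = 0.0547 to 0.122). In Mdr2-KO it passed without Mdr2-KO array 3 (adjusted p = 0.0252), and with array weights (adjusted p = 0.0435). The ratio of Col1a1 over Col1a2, relative to wild type, averaged 0.03 ± 0.08 in Mdr2-KO/IL6-KO and 0.07 ± 0.08 in Mdr2-KO.

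Col3a1 encodes collagen III, which forms fibrils together with collagen I. Its signal was 7.24 to 7.97 (median 7.65) in Mdr2-KO/IL6-KO, 7.68, 7.76, 6.96, 7.69 and 8.12 in Mdr2-KO, and 7.25, 7.25 and 7.16 in wild type. The groups overlapped, and neither the difference of 0.40 log2 units (SE 0.19, adjusted p = 0.21) in Mdr2-KO/IL6-KO nor that of 0.42 log2 units (SE 0.20, adjusted p = 0.133) in Mdr2-KO passed. In Mdr2-KO it passed without Mdr2-KO array 3 (adjusted p = 0.0139), at a difference of 0.59. Col5a1, Col5a2 and Col5a3, chains of collagen V, which starts fibrils and limits their width, differed from wild type by 0.06 to 0.19 log2 units in Mdr2-KO/IL6-KO and by -0.15 to 0.02 in Mdr2-KO, and none passed. Col3a1 and Col5a2 are also neighbours with no coding gene between them.

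In the group of beaded-filament, network and fibril-associated collagens, Col6a3, Col8a1 and Col12a1 were higher in both knockouts, and Col6a1, Col6a2 and Col14a1 did not pass. Col12a1 encodes a collagen that coats fibrils. Its signal was 6.07 at the lowest, 6.14 at the median and 6.46 at the highest of the 6 Mdr2-KO/IL6-KO arrays, 5.87, 5.86, 5.61, 5.94 and 5.98 in the 5 Mdr2-KO arrays, and 5.19, 5.26 and 5.42 in the 3 wild-type arrays. The groups did not overlap, and all 3 wild-type arrays lay under the background of 5.49, so its wild-type level was not resolved from background. Col12a1 differed from wild type by 0.91 log2 units (SE 0.10, adjusted p = 3.74e-05) in Mdr2-KO/IL6-KO and by 0.56 log2 units (SE 0.10, adjusted p = 0.00171) in Mdr2-KO.

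Collagen VI is a beaded filament that joins cells to the fibrils and is assembled from several chains. Col6a3, the longest of those measured, had a signal of 7.36 to 8.08 (median 7.84) in Mdr2-KO/IL6-KO, 7.71, 7.50, 7.16, 7.76 and 7.81 in Mdr2-KO, and 6.96, 7.15 and 6.82 in wild type. Both sets of knockout arrays lay above wild type. The difference was 0.77 log2 units (SE 0.17, adjusted p = 0.00781) in Mdr2-KO/IL6-KO and 0.61 log2 units (SE 0.18, adjusted p = 0.0236) in Mdr2-KO, where it did not pass without Mdr2-KO array 4 or wild-type array 1 or 3 (adjusted p = 0.0519 to 0.11). Its partners did not pass: Col6a1 differed by 0.18 (adjusted p = 0.343) in Mdr2-KO/IL6-KO and -0.02 (adjusted p = 0.904) in Mdr2-KO, and Col6a2 by 0.12 (adjusted p = 0.567) in Mdr2-KO/IL6-KO and -0.05 (adjusted p = 0.769) in Mdr2-KO. Relative to wild type, the ratio of Col6a3 over the mean of Col6a1 and Col6a2 averaged 0.62 ± 0.18 in Mdr2-KO/IL6-KO and 0.65 ± 0.20 in Mdr2-KO, against a wild-type SD of 0.22.

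Col8a1 encodes a chain of collagen VIII, a short-chain network collagen. Its signal was 6.16 to 6.80 (median 6.64) in Mdr2-KO/IL6-KO, 6.38, 6.75, 6.53, 6.15 and 6.78 in Mdr2-KO, and 5.95, 6.11 and 6.03 in wild type. Neither knockout overlapped wild type. The difference was 0.55 log2 units (SE 0.14, adjusted p = 0.0205) in Mdr2-KO/IL6-KO, which did not pass without wild-type array 1 or 3 (adjusted p = 0.0655 to 0.0836), and 0.48 log2 units (SE 0.15, adjusted p = 0.0326) in Mdr2-KO, which did not pass without Mdr2-KO array 2, 3 or 5 or wild-type array 1 or 3 (adjusted p = 0.0506 to 0.0981). Col14a1, another fibril-coating collagen, gave -0.11 (adjusted p = 0.749) in Mdr2-KO/IL6-KO and -0.34 (adjusted p = 0.172) in Mdr2-KO.

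Of the 9 basement membrane genes, 5 were higher in Mdr2-KO/IL6-KO and 3 in Mdr2-KO, and none was lower in either by limma (none fell at an unadjusted p of 0.05). Nid1 encodes nidogen 1, which links the laminin and collagen IV networks. Its signal was 9.15 at the lowest, 9.47 at the median and 9.85 at the highest of the 6 Mdr2-KO/IL6-KO arrays, 8.96, 9.18, 8.92, 9.17 and 9.08 in the 5 Mdr2-KO arrays, and 8.23, 8.48 and 8.07 in the 3 wild-type arrays. No knockout array overlapped wild type. The difference was 1.20 log2 units (SE 0.14, adjusted p = 7.53e-05) in Mdr2-KO/IL6-KO, or 2.3-fold, and 0.80 log2 units (SE 0.14, adjusted p = 0.00176) in Mdr2-KO, or 1.74-fold. No array or alternative ended either call.

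Laminins are trimers of an alpha, a beta and a gamma chain. Lama2, an alpha chain, had a signal of 6.60 to 7.22 (median 6.96) in Mdr2-KO/IL6-KO, 6.77, 6.55, 6.25, 6.61 and 6.83 in Mdr2-KO, and 6.12, 6.34 and 5.92 in wild type. Mdr2-KO/IL6-KO did not overlap wild type and Mdr2-KO did. The difference was 0.81 log2 units (SE 0.14, adjusted p = 0.0017) in Mdr2-KO/IL6-KO and 0.47 log2 units (SE 0.15, adjusted p = 0.0339) in Mdr2-KO, where the call ended without Mdr2-KO array 1, 4 or 5 or wild-type array 1 or 3 (adjusted p = 0.0581 to 0.168). The beta chain Lamb1 had a signal of 6.96 to 7.12 (median 7.03) in Mdr2-KO/IL6-KO, 6.96, 6.94, 6.86, 7.11 and 7.05 in Mdr2-KO, and 6.71, 6.69 and 6.58 in wild type. Its knockout arrays all lay above wild type, by 0.38 log2 units (SE 0.07, adjusted p = 0.0016) in Mdr2-KO/IL6-KO and 0.33 log2 units (SE 0.07, adjusted p = 0.0041) in Mdr2-KO. Lamc1, the common gamma chain, gave 0.14 (adjusted p = 0.281) in Mdr2-KO/IL6-KO and 0.07 (adjusted p = 0.517) in Mdr2-KO. Nid1 over Lamc1, relative to wild type, averaged 1.07 ± 0.19 in Mdr2-KO/IL6-KO and 0.73 ± 0.09 in Mdr2-KO, and Lamb1 over Lamc1 averaged 0.24 ± 0.11 in Mdr2-KO/IL6-KO and 0.25 ± 0.05 in Mdr2-KO.

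Col4a1 and Col4a2 encode the main chains of collagen IV and sit next to each other in the genome. Col4a1 signal was 7.48 to 7.69 (median 7.55) in Mdr2-KO/IL6-KO, 7.28, 7.48, 7.23, 7.44 and 7.36 in Mdr2-KO, and 7.27, 7.17 and 7.24 in wild type. Its Mdr2-KO/IL6-KO arrays did not overlap wild type. It differed from wild type by 0.33 log2 units (SE 0.07, adjusted p = 0.00501) in Mdr2-KO/IL6-KO and by 0.13 log2 units (SE 0.07, adjusted p = 0.192) in Mdr2-KO. Col4a2 signal was 7.0 to 7.18 (median 7.09) in Mdr2-KO/IL6-KO, 6.79, 7.10, 6.79, 7.03 and 7.02 in Mdr2-KO, and 6.78, 6.76 and 6.67 in wild type. The differences were 0.36 log2 units (SE 0.08, adjusted p = 0.00684) in Mdr2-KO/IL6-KO and 0.21 log2 units (SE 0.08, adjusted p = 0.0718) in Mdr2-KO, where it passed without Mdr2-KO array 1 or 3 (adjusted p = 0.0432 to 0.0468). The ratio of Col4a1 over Col4a2, relative to wild type, averaged -0.02 ± 0.04 in Mdr2-KO/IL6-KO and -0.08 ± 0.06 in Mdr2-KO.

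The other 3 basement membrane collagens did not pass. Col4a5, a minor collagen IV chain, gave 0.21 (adjusted p = 0.191) in Mdr2-KO/IL6-KO, where it passed with array weights (adjusted p = 0.0471), and -0.01 (adjusted p = 0.968) in Mdr2-KO. Col15a1, a collagen of the basement membrane edge, gave 0.10 (adjusted p = 0.564) in Mdr2-KO/IL6-KO and 0.08 (adjusted p = 0.535) in Mdr2-KO. Col18a1, the source of endostatin and in liver also made by hepatocytes, gave 0.18 (adjusted p = 0.121) in Mdr2-KO/IL6-KO and 0.21 (adjusted p = 0.0518) in Mdr2-KO. Col18a1 passed in Mdr2-KO without wild-type array 3 (adjusted p = 0.028), and with only the 13292 genes of higher mean (adjusted p = 0.0408) and with array weights (adjusted p = 0.0259) and in Mdr2-KO/IL6-KO with array weights (adjusted p = 0.0331).

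Of the 6 measured elastic fibre genes, 1 passed in Mdr2-KO/IL6-KO and none in Mdr2-KO by limma, where 2 were higher and 1 lower at an unadjusted p of 0.05. Fbln5, which tethers elastin to its microfibrils, had a signal of 7.41 to 7.88 (median 7.46) in Mdr2-KO/IL6-KO, 7.44, 7.43, 7.19, 7.17 and 7.44 in Mdr2-KO, and 6.97, 7.23 and 6.92 in wild type. The Mdr2-KO/IL6-KO arrays all lay above wild type, by 0.52 log2 units (SE 0.11, adjusted p = 0.00654), and Mdr2-KO differed by 0.29 log2 units (SE 0.12, adjusted p = 0.0798), which passed without wild-type array 2 (adjusted p = 0.0411). Eln, elastin itself, gave 0.28 (adjusted p = 0.183) in Mdr2-KO/IL6-KO and 0.05 (adjusted p = 0.798) in Mdr2-KO. Mfap4, a microfibril-associated glycoprotein, gave 0.76 (adjusted p = 0.0516) in Mdr2-KO/IL6-KO and 0.53 (adjusted p = 0.133) in Mdr2-KO. The Mfap4 difference in Mdr2-KO/IL6-KO passed without Mdr2-KO/IL6-KO array 1 or 2 or Mdr2-KO array 3 or 5 (adjusted p = 0.0343 to 0.0382), and with only the 13292 genes of higher mean (adjusted p = 0.0413), with array weights (adjusted p = 0.0273) and with only the 2 groups compared (adjusted p = 0.0376). Fbln1, Fbln2 and Efemp1, other proteins of the fibulin family, differed by 0.02 to 0.28 in Mdr2-KO/IL6-KO and by -0.42 to 0.18 in Mdr2-KO, and Fbln2 passed in Mdr2-KO/IL6-KO without Mdr2-KO array 3 (adjusted p = 0.0426).

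Of the crosslinking enzymes, Loxl1 rose in both knockouts. Lysyl oxidases oxidise lysines of collagen and elastin so that the chains bond to each other, and Loxl1 acts mainly on elastin. Loxl1 signal was 6.93 to 7.69 (median 7.28) in Mdr2-KO/IL6-KO, 7.26, 6.98, 6.74, 7.15 and 7.40 in Mdr2-KO, and 6.63, 6.38 and 6.78 in wild type. The Mdr2-KO/IL6-KO arrays lay above wild type and Mdr2-KO overlapped it. The difference was 0.69 log2 units (SE 0.17, adjusted p = 0.0127) in Mdr2-KO/IL6-KO, which did not pass without wild-type array 2 (adjusted p = 0.0682). In Mdr2-KO it was 0.51 log2 units (SE 0.17, adjusted p = 0.0462), and the call ended without Mdr2-KO/IL6-KO array 3 or 5, Mdr2-KO array 1, 4 or 5 or wild-type array 1, 2 or 3 (adjusted p = 0.0505 to 0.141), and after quantile normalization (adjusted p = 0.0547) and with trend and robust moderation (adjusted p = 0.052). Lox was near the background, at 5.36 to 6.23 (median 6.01) in Mdr2-KO/IL6-KO, 6.00, 5.60, 5.0, 5.82 and 5.97 in Mdr2-KO, and 5.42, 4.83 and 5.5 in wild type, and gave 0.69 (adjusted p = 0.0554) in Mdr2-KO/IL6-KO and 0.43 (adjusted p = 0.185) in Mdr2-KO. Lox passed in Mdr2-KO/IL6-KO without Mdr2-KO/IL6-KO array 1 or Mdr2-KO array 3 (adjusted p = 0.0201 to 0.0215), and after quantile normalization (adjusted p = 0.0454), with array weights (adjusted p = 0.0407) and with only the 2 groups compared (adjusted p = 0.0464), and in Mdr2-KO without Mdr2-KO array 3 (adjusted p = 0.0484).

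Of the 9 genes listed under adhesive and matricellular glycoproteins, Thbs1 and Sparc were higher and Ecm1 was lower in Mdr2-KO/IL6-KO. In Mdr2-KO, Ecm1 and Postn were lower. Thbs1 encodes thrombospondin 1, which can activate latent transforming growth factor beta. Its signal was 7.35 to 7.83 (median 7.58) in Mdr2-KO/IL6-KO, 7.16, 7.11, 6.72, 7.46 and 7.59 in Mdr2-KO, and 6.80, 6.99 and 6.60 in wild type. It differed from wild type by 0.79 log2 units (SE 0.17, adjusted p = 0.00579) in Mdr2-KO/IL6-KO, with no overlap, and by 0.41 log2 units (SE 0.17, adjusted p = 0.0963) in Mdr2-KO, where it passed without Mdr2-KO array 3 (adjusted p = 0.0254). Sparc, a collagen-binding protein made by activated stellate cells, had a signal of 10.39 to 10.82 (median 10.68) in Mdr2-KO/IL6-KO, 10.46, 10.44, 9.83, 10.39 and 10.54 in Mdr2-KO, and 9.98, 10.32 and 9.89 in wild type. It differed by 0.56 log2 units (SE 0.15, adjusted p = 0.0226) in Mdr2-KO/IL6-KO, which did not pass without wild-type array 1 or 3 (adjusted p = 0.0908 to 0.113), and by 0.27 log2 units (SE 0.15, adjusted p = 0.215) in Mdr2-KO, where it passed without Mdr2-KO array 3 (adjusted p = 0.0366).

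Ecm1 is a secreted glycoprotein that, in mouse liver, hepatocytes make and that holds transforming growth factor beta in its latent form. Its signal was 8.85 at the lowest, 9.29 at the median and 9.54 at the highest of the 6 Mdr2-KO/IL6-KO arrays, 9.47, 9.16, 9.07, 9.39 and 9.28 in the 5 Mdr2-KO arrays, and 9.90, 9.83 and 10.29 in the 3 wild-type arrays. All knockout arrays lay below all wild-type arrays. The difference was -0.77 log2 units (SE 0.14, adjusted p = 0.002) in Mdr2-KO/IL6-KO and -0.73 log2 units (SE 0.14, adjusted p = 0.00298) in Mdr2-KO, and no array or alternative ended either call. The 7 measured hepatocyte markers had none called by limma in either comparison, nor any at an unadjusted p of 0.05, with differences of -0.06 to 0.11 in Mdr2-KO/IL6-KO and -0.06 to 0.29 in Mdr2-KO. Array means of these markers lay between 12.30 and 12.56, near the highest value in the data, 13.60. The part of hepatocyte content in the Ecm1 difference was not tested.

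Postn encodes periostin, a matricellular protein of fibroblasts that binds collagen. Its signal was 6.64 at the lowest, 7.28 at the median and 7.46 at the highest of the 6 Mdr2-KO/IL6-KO arrays, 7.26, 7.09, 6.35, 7.41 and 7.05 in the 5 Mdr2-KO arrays, and 7.59, 8.09 and 7.44 in the 3 wild-type arrays. Mdr2-KO lay wholly below wild type, and Mdr2-KO/IL6-KO overlapped it. The difference was -0.67 log2 units (SE 0.22, adjusted p = 0.0412) in Mdr2-KO, and the call ended without Mdr2-KO array 2, 3 or 5 or wild-type array 1, 2 or 3 (adjusted p = 0.0517 to 0.15), and with trend and robust moderation (adjusted p = 0.0587), with array weights (adjusted p = 0.0595) and with only the 2 groups compared (adjusted p = 0.0626). In Mdr2-KO/IL6-KO the difference was -0.53 log2 units (SE 0.21, adjusted p = 0.123). Fibronectin (Fn1), which hepatocytes also secrete into plasma, gave -0.16 (adjusted p = 0.172) in Mdr2-KO/IL6-KO and -0.03 (adjusted p = 0.753) in Mdr2-KO. Thbs2, Tnc, Vcan and Mgp, other matrix proteins of this list, did not pass in either, at 0.06 to 0.56 in Mdr2-KO/IL6-KO and 0.06 to 0.40 in Mdr2-KO. Vcan, the only member whose mean lay under the background, passed in Mdr2-KO without Mdr2-KO/IL6-KO array 6 (adjusted p = 0.0401).

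Setting Mdr2-KO/IL6-KO against Mdr2-KO asks what loss of IL6 changed among matrix genes when Mdr2 was absent. Of the 43 members 3 were higher and none was lower by limma. That is 6.98% higher beside 5.04% of all genes, and none lower beside 3.72% (8.76% of all genes passed in either direction). At an unadjusted p of 0.05 (limma), 15 members were higher and none was lower, beside 3951 and 1819 of all 19938 genes. Col12a1 differed by 0.35 log2 units (SE 0.08, adjusted p = 0.021), with no overlap between the groups, and did not pass without Mdr2-KO array 3 (adjusted p = 0.0536), and after quantile normalization (adjusted p = 0.0609). Col5a1 had a signal of 6.77 to 6.92 (median 6.82) in Mdr2-KO/IL6-KO, 6.64, 6.74, 6.56, 6.53 and 6.68 in Mdr2-KO, and 6.74, 6.70 and 6.90 in wild type, and its difference of 0.20 log2 units (SE 0.06, adjusted p = 0.0403) did not pass without Mdr2-KO/IL6-KO array 1, 2, 3, 4 or 5 or Mdr2-KO array 1, 3 or 4 (adjusted p = 0.0529 to 0.0966), and after quantile normalization (adjusted p = 0.0939) and with arrays centred on their median (adjusted p = 0.1). Col4a1 differed by 0.20 log2 units (SE 0.06, adjusted p = 0.0453) and did not pass without Mdr2-KO/IL6-KO array 1, 2, 4, 5 or 6, Mdr2-KO array 1, 3, 4 or 5 or wild-type array 1 (adjusted p = 0.0526 to 0.112), and after quantile normalization (adjusted p = 0.0587) and with arrays centred on their median (adjusted p = 0.115). Leaving out Mdr2-KO array 3 left no member called by limma, and leaving out Mdr2-KO/IL6-KO array 4, Mdr2-KO array 1 or Mdr2-KO array 4 left 1. Groups did not overlap in these 3 members, beside 4.4% of all genes with the Mdr2-KO/IL6-KO arrays all above. No member had them all below, beside 2.94% of all genes.

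The members lay on the higher side in Mdr2-KO/IL6-KO in 36 of 43 cases (83.7%), and 65.7% of all genes did too. Their median difference was 0.17, beside 0.06 over all genes and 0.06 over the olfactory receptor genes. Nid1 missed the threshold at 0.40 log2 units (SE 0.12, adjusted p = 0.0504), with an interval of 0.14 to 0.66, and passed without Mdr2-KO/IL6-KO array 3 or 5 or wild-type array 2 or 3 (adjusted p = 0.0335 to 0.0458), and with only the 13292 genes of higher mean (adjusted p = 0.0418) and with trend and robust moderation (adjusted p = 0.0493). Also between the knockouts, Lama2 passed without Mdr2-KO/IL6-KO array 1 (adjusted p = 0.0497), Efemp1 passed without Mdr2-KO/IL6-KO array 1 or 2 (adjusted p = 0.0462 to 0.0489) and Thbs1 passed without Mdr2-KO array 5 (adjusted p = 0.0491). For Lum the interval of the difference was -0.59 to 0.17, for Col1a1 it was -0.16 to 0.39 and for Ecm1 it was -0.29 to 0.21. The last 3 intervals include 0 and do not show that the knockouts are alike. Of the genes that passed against wild type in Mdr2-KO/IL6-KO and not in Mdr2-KO, Col1a2, Col4a2, Fbln5, Thbs1 and Sparc did not differ between the knockouts past the threshold, at 0.15 to 0.38 (adjusted p = 0.104 to 0.505).

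**Figure D4:**
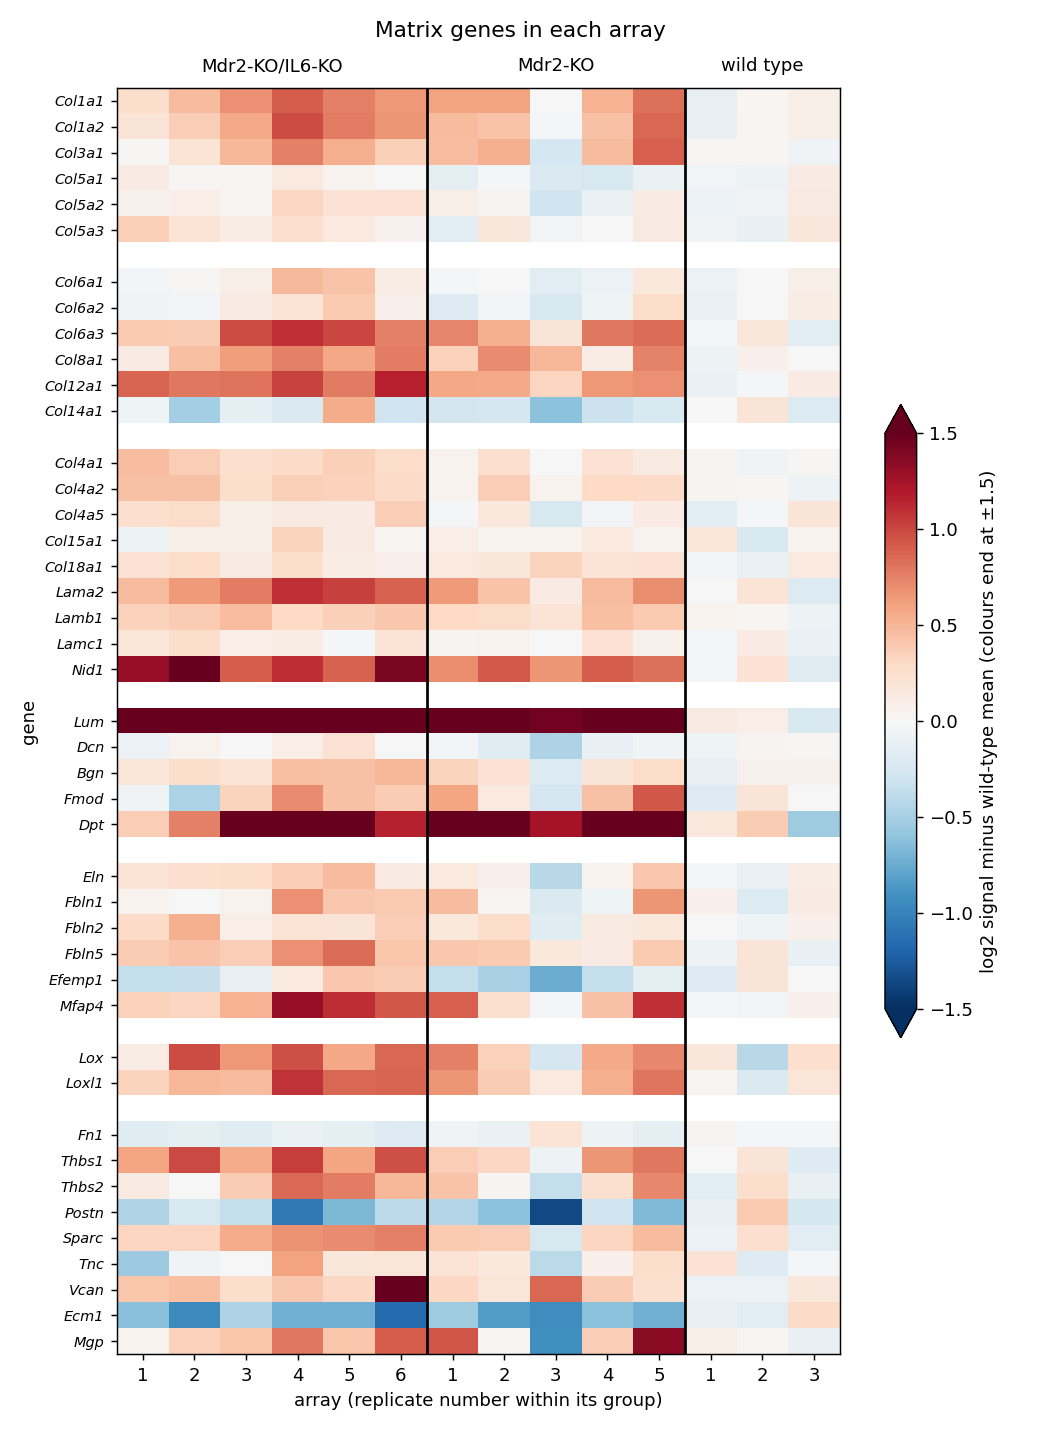
Log2 signal of each of the 43 measured matrix genes in each array, relative to the wild-type mean, with columns for Mdr2-KO/IL6-KO arrays 1 to 6, Mdr2-KO arrays 1 to 5 and wild-type arrays 1 to 3 and rows grouped by role. The column of Mdr2-KO array 3 is lower than its group in most rows, with the lowest value of the 5 arrays in 35 of 43 genes.

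Some arrays were low or high across many members. Mdr2-KO array 3, the lowest of its group in 35 members, was the lowest in 23.3% of all genes. Its mean over the 43 genes was 7.23, and the other Mdr2-KO arrays lay at 7.53 to 7.77. Mdr2-KO array 5 was the highest in 23 members, and it was the highest in 21.3% of all genes. In Mdr2-KO/IL6-KO array 1 was the lowest in 18 members, beside 15.4% of all genes, and array 4 the highest in 19, beside 15.3%. Mdr2-KO array 3 also had the lowest mean of its group for the markers of stellate cells (7.27), portal fibroblasts (6.24), bile duct cells (7.55), sinusoidal endothelium (8.65) and macrophages (8.54). Its mean was the second lowest for myofibroblast markers (6.04), and the second highest for hepatocyte markers (12.51). The part of tissue composition in the values of this array was not tested.

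Markers of cells that make or line matrix were read alongside. Over all genes, 6.96% were called higher and 5.33% lower in Mdr2-KO/IL6-KO, and 8.89% and 12.1% in Mdr2-KO. Counts against wild type in this and the following lists stand beside these shares. Of 10 measured genes listed as bile duct cell markers, 7 were higher in Mdr2-KO/IL6-KO and 6 in Mdr2-KO. Array means were 7.68 to 8.31 in Mdr2-KO/IL6-KO, 7.55 to 8.19 in Mdr2-KO and 6.83 to 7.29 in wild type. The list includes Krt8 and Krt18, which are not limited to duct cells. Krt19, a duct keratin, rose by 1.16 (adjusted p = 0.00285) in Mdr2-KO/IL6-KO and 1.07 (adjusted p = 0.00487) in Mdr2-KO. Of 9 quiescent stellate cell markers, Pdgfrb was higher and Reln lower in both knockouts. In Mdr2-KO/IL6-KO 7 of the 9 differences lay below 0, with a median of -0.05. For Mdr2-KO 8 did, with a median of -0.17. Array means were 7.42 to 7.67 in Mdr2-KO/IL6-KO, 7.27 to 7.61 in Mdr2-KO and 7.59 to 7.61 in wild type. Pdgfrb, the platelet-derived growth factor receptor of stellate cells, gave 0.83 (adjusted p = 0.00434) in Mdr2-KO/IL6-KO and 0.61 (adjusted p = 0.0227) in Mdr2-KO.

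Of 6 myofibroblast and smooth muscle markers only Tagln passed, at 0.74 (adjusted p = 0.00415) in Mdr2-KO/IL6-KO and 0.77 (adjusted p = 0.00339) in Mdr2-KO. The mean of 2 of the 6 lay under the background, so the lack of calls does not show that the list was unchanged. Acta2, the defining smooth muscle actin, gave 0.25 (adjusted p = 0.637) in Mdr2-KO/IL6-KO and 0.40 (adjusted p = 0.305) in Mdr2-KO. Array means of this list were 5.94 to 6.33 in Mdr2-KO/IL6-KO, 5.79 to 6.56 in Mdr2-KO and 5.87 to 6.12 in wild type. Of 8 portal fibroblast and mesothelium markers, Entpd2 and Cd34 were higher in both knockouts, with array means of 6.35 to 6.60 in Mdr2-KO/IL6-KO, 6.24 to 6.49 in Mdr2-KO and 6.12 to 6.23 in wild type. Differences lay below 0 in 3 of these 8 markers in Mdr2-KO/IL6-KO and in 5 in Mdr2-KO. Their median was 0.07 in Mdr2-KO/IL6-KO, beside -0.02 over all genes, and -0.08 in Mdr2-KO, beside -0.07. Among 8 sinusoidal endothelial markers 1 was higher in each knockout and 1 was lower in Mdr2-KO. Each is 12.5% of the list, beside 6.96% higher in Mdr2-KO/IL6-KO and 8.89% higher and 12.1% lower in Mdr2-KO over all genes. Among 10 macrophage markers 4 were higher and 1 lower in Mdr2-KO/IL6-KO, and 3 were higher and 1 lower in Mdr2-KO. The part of these cells in the matrix differences was not tested.

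Among genes that fold, modify and process collagen, 19 were measured. By limma 3 were higher and none lower in Mdr2-KO/IL6-KO (1 lower at an unadjusted p of 0.05), and 4 were higher and 1 lower in Mdr2-KO, with medians of 0.14 in Mdr2-KO/IL6-KO and 0.13 in Mdr2-KO. Colgalt1, which adds galactose to collagen hydroxylysine, rose by 0.70 (adjusted p = 6.05e-05) in Mdr2-KO/IL6-KO and 0.44 (adjusted p = 0.00234) in Mdr2-KO. Plod2, the lysyl hydroxylase of the collagen telopeptide, rose by 0.54 (adjusted p = 0.00261) in Mdr2-KO/IL6-KO and 0.79 (adjusted p = 0.000179) in Mdr2-KO, and Tgm2, a transglutaminase that crosslinks matrix, by 0.75 (adjusted p = 0.00351) in Mdr2-KO/IL6-KO and 0.78 (adjusted p = 0.00284) in Mdr2-KO. Ppib, a proline isomerase that helps the triple helix fold, was lower in Mdr2-KO than in wild type, at -0.37 (adjusted p = 0.01), and was higher in Mdr2-KO/IL6-KO than in Mdr2-KO by 0.42 (adjusted p = 0.00445).

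Of 21 collagen chains outside the set, many of them of cartilage, skin or nerve, none was higher in either knockout, also at an unadjusted p of 0.05. By limma none was lower in Mdr2-KO/IL6-KO and 8 were lower in Mdr2-KO. At an unadjusted p of 0.05 the counts lower were 1 in Mdr2-KO/IL6-KO and 15 in Mdr2-KO. Over all 19938 genes those unadjusted counts were 2436 in Mdr2-KO/IL6-KO and 4777 in Mdr2-KO. Over the 1015 olfactory receptor genes they were 62 in Mdr2-KO/IL6-KO and 203 in Mdr2-KO. Their median difference was -0.05 in Mdr2-KO/IL6-KO and -0.24 in Mdr2-KO, and that of the olfactory receptor genes was -0.05 in Mdr2-KO/IL6-KO and -0.11 in Mdr2-KO. Col25a1, a transmembrane collagen, gave -0.18 (adjusted p = 0.111) in Mdr2-KO/IL6-KO and -0.33 (adjusted p = 0.00517) in Mdr2-KO. Between the knockouts 3 of the 21 (14.3%) were higher in Mdr2-KO/IL6-KO, beside 5.04% of all genes. Their median was 0.19, beside 0.06 over all genes.

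Of 20 matrix receptors, 11 were higher and none lower in Mdr2-KO/IL6-KO by limma (none lower at an unadjusted p of 0.05), and 8 were higher and 1 lower in Mdr2-KO, with medians of 0.40 in Mdr2-KO/IL6-KO and 0.27 in Mdr2-KO. Itga8, an integrin chain of stellate cells and smooth muscle that binds RGD ligands, rose by 1.29 (adjusted p = 0.00132) in Mdr2-KO/IL6-KO and 1.25 (adjusted p = 0.00179) in Mdr2-KO. Ddr1, a receptor tyrosine kinase for collagen, rose by 0.83 (adjusted p = 0.000136) in Mdr2-KO/IL6-KO and 0.64 (adjusted p = 0.00115) in Mdr2-KO. Itgb6, a chain of the epithelial integrin that activates transforming growth factor beta, gave 0.96 (adjusted p = 0.0389) in Mdr2-KO/IL6-KO and 0.78 (adjusted p = 0.0697) in Mdr2-KO, the second of which did not pass. Itga6, a laminin receptor chain, was lower in Mdr2-KO than in wild type, at -0.58 (adjusted p = 0.0212).

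In the list of transforming growth factor beta ligands, activation and profibrotic signals, 10 of 15 were higher in Mdr2-KO/IL6-KO and 4 in Mdr2-KO, where 1 was lower, with medians of 0.60 in Mdr2-KO/IL6-KO and 0.34 in Mdr2-KO. Tgfb2 rose by 1.28 (adjusted p = 0.00462) in Mdr2-KO/IL6-KO and 0.90 (adjusted p = 0.0285) in Mdr2-KO, and Tgfb3 by 1.19 (adjusted p = 0.000732) in Mdr2-KO/IL6-KO and 0.82 (adjusted p = 0.00838) in Mdr2-KO. Tgfb1, the ligand most studied in liver fibrosis, gave -0.11 (adjusted p = 0.524) in Mdr2-KO/IL6-KO and passed as lower in Mdr2-KO, at -0.35 (adjusted p = 0.0237). Timp1, an inhibitor of matrix proteases, gave 0.95 (adjusted p = 0.00859) in Mdr2-KO/IL6-KO and 0.64 (adjusted p = 0.0529) in Mdr2-KO, the second of which did not pass. Tgfbr2, the ligand-binding receptor, was higher in Mdr2-KO/IL6-KO than in Mdr2-KO by 0.39 (adjusted p = 0.0186).

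**Figure D5:**
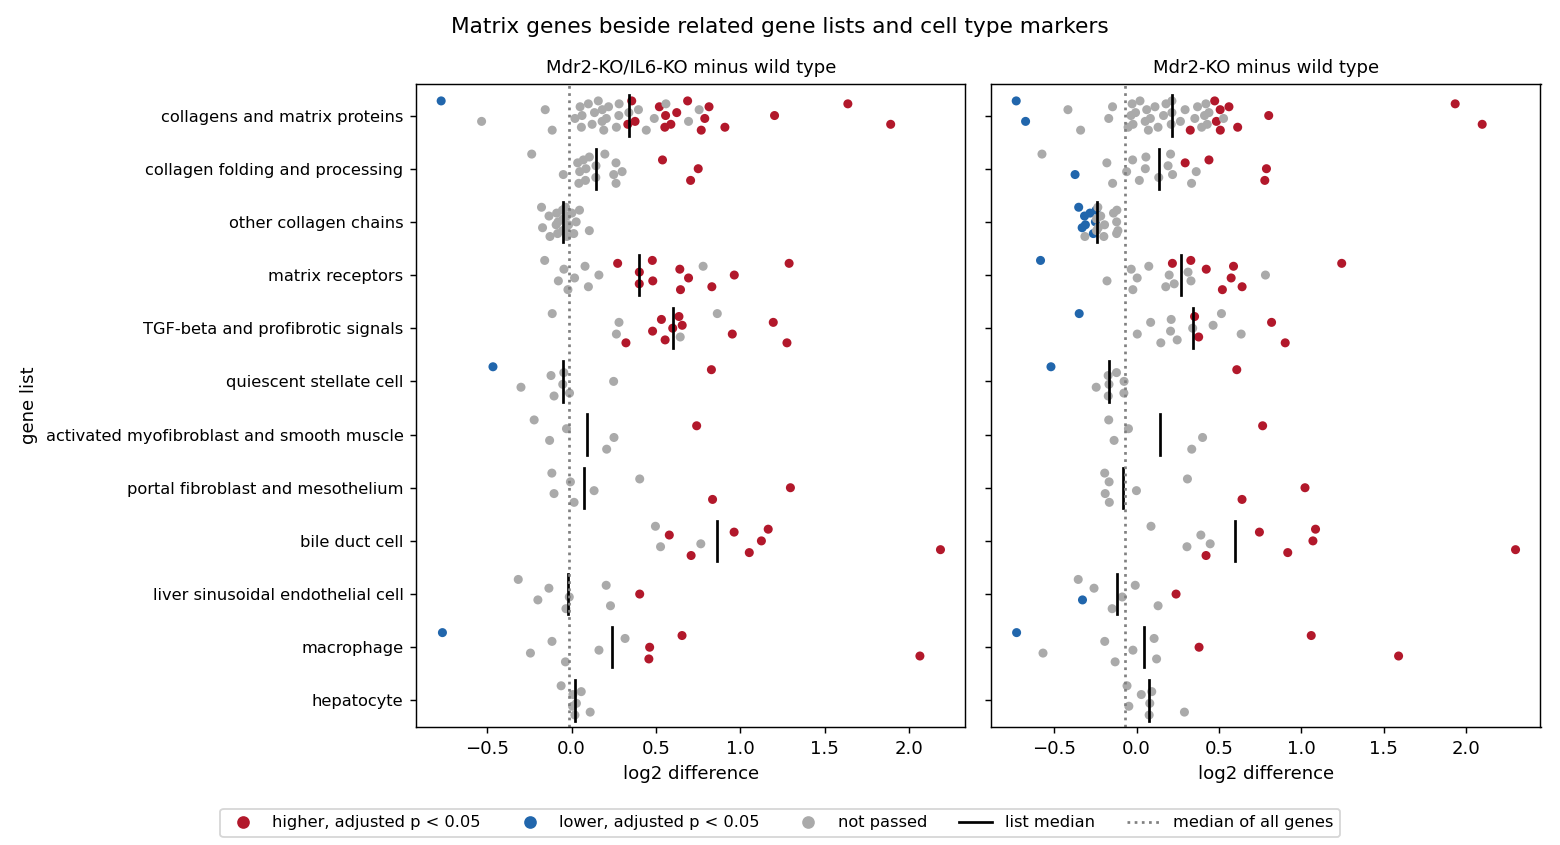
Differences in log2 signal from wild type for each measured matrix gene, pathway gene and cell marker, with 1 point per gene, the list median as a bar, the median of all genes as a dotted line and red (higher) or blue (lower) for genes that passed, for Mdr2-KO/IL6-KO on the left and Mdr2-KO on the right. The median over all genes is -0.02 in Mdr2-KO/IL6-KO and -0.07 in Mdr2-KO, and that of the matrix members is 0.34 in Mdr2-KO/IL6-KO and 0.21 in Mdr2-KO.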

How the data were processed

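Labelled cRNA from total RNA of 14 liver samples was hybridised to Affymetrix mouse gene arrays, with RNA extracted in Trizol from frozen tissue, per the labels' protocols. The values are log2 signals that the authors deposited as a series table, made with Partek and RMA per the submitters' processing notes. RMA corrects background, normalises arrays to a shared distribution and summarises probes, so a shift shared by most genes may be reduced in the values. Between the knockouts 65.7% of all genes still lay on the higher side in Mdr2-KO/IL6-KO, at a median of 0.06. For tool versions, genome build, filters and pooling, no statement is given in the sources used here. Values span 1.47 to 13.60, and at most 0.062% were equal between any 2 arrays.

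Of 35557 probe sets, 21789 carry 1 gene name, 1621 several and 12147 none, by GEO's platform annotation, with 21698 symbols updated through gene identifiers. Each gene was read from its single-gene probe set of highest mean, which left 19938 genes, and 0 columns of other samples were set aside. A model of 3 group means over 14 arrays was fitted in limma 3.58.1 (R 4.3.3) with empirical Bayes moderation, 2-sided tests and Benjamini-Hochberg adjustment over all 19938 genes, called at 0.05. No filter was set, and 29.2% of genes have a mean under the background of 5.49, a level chosen after the data were seen. Python 3.11.15, pandas 2.3.3 and matplotlib 3.10.9 were used for tables and plots. The procedure was tested on simulated data.

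The members and all lists were chosen with earlier results of these data known. All 45 listed genes are accounted for by role. Array values are given for Col1a1, Col1a2 and Col3a1, and for called members whose arrays do not overlap, up to 4 per role and comparison by size of difference. Of each pathway list up to 4 called genes per comparison could be named. Dpt and Loxl1 values in overlapping groups, Lox, uncalled members and uncalled list genes, marker genes and the partner pairs were named with their values known. The 22 alternatives were quantile normalization, arrays centred on their median, only the 13292 genes in the upper part by mean, the mean of a gene's probes, trend and robust moderation, array weights, only the 2 groups compared, a change of at least 1.5-fold, and each array left out in turn. Labels give no batch. The number of arrays per group (6, 5 and 3) limits the precision.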

Additional observations from a re-analysis of the deposited data

Results flagged for a closer look

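In tests for a single array apart from its group, run on 86 sets of member values in the knockout groups, 7 stood out, where chance gives about 5% of them. The range of the group and Dixon's 95% critical value set the limit, and wild type, with 3 arrays, was not tested. Mdr2-KO array 3 stood apart in 6 members. It was the lowest of its group for Col14a1, a fibril-coating collagen, at 8.52, for Bgn, biglycan, at 10.81, for Sparc at 9.83 and for Tnc, tenascin C, at 5.58. It was the highest for Fn1, fibronectin, at 12.48 and for Vcan, versican, at 5.93. In Mdr2-KO/IL6-KO array 6 was the highest for Vcan at 6.57.

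A tested difference between the knockouts was found for Col5a1 (0.20), Col12a1 (0.35) and Col4a1 (0.20), in log2 units of Mdr2-KO/IL6-KO minus Mdr2-KO, all higher in Mdr2-KO/IL6-KO. None of these 3 calls held in every alternative.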

How the results depend on the processing

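No paired analysis was possible because the codes in the array titles are not shared between groups and no label pairs the arrays. Of called members, 11 of 17 in Mdr2-KO/IL6-KO against wild type, 5 of 12 in Mdr2-KO against wild type and 0 of 3 between the knockouts kept their call in all alternatives other than the 1.5-fold limit, and 6 of 26, 9 of 31 and 4 of 40 uncalled members gained one somewhere; no called difference changed sign. With the 1.5-fold limit, members higher were 10, 4 and 0 in that order of comparisons, and genes higher and lower were 460 and 288, 456 and 343, and 37 and 113. Members lower in Mdr2-KO against wild type were 1 with trend and robust moderation, with array weights and with only the 2 groups compared, where genes lower were 1525. Between the knockouts, members higher were 0 after quantile normalization and 1 with centred arrays, and genes higher were 1566 with array weights. There the split of genes higher and lower was 1005 and 741, against 675 and 852 after quantile normalization and 424 and 1056 with centred arrays; with Mdr2-KO/IL6-KO set against wild type it was 1388 and 1062, against 1006 and 1573 with centred arrays. Leaving out single arrays gave, in Mdr2-KO/IL6-KO against wild type, 899 to 1435 genes higher, 724 to 1152 lower and 11 to 20 members higher. In Mdr2-KO against wild type it gave 988 to 1823 genes higher, 1152 to 2908 lower, 5 to 15 members higher and 1 to 2 lower. Between the knockouts it gave 360 to 1302 genes higher, 394 to 862 lower and 0 to 4 members higher. Scaling moved the median of all genes by at most 0.0565. The cause of these changes was not tested. Signals near 5.49, as for Vcan, Lox and wild-type Col12a1, cannot be told apart from background.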
